A study of Mus musculus with 18 samples.

Results

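The genes described here are 38 genes of the mammary epithelium, 6 basal, 16 luminal, 13 general epithelial and 3 other genes, picked by symbol out of the 55486 genes of the count table. RNA sequencing gave their levels in 18 libraries from cultures of normal fibroblasts (NFs) sorted out of the mammary glands of female FVB/n mice, 4 groups in all. CD26- NF control (n = 3, replicates 1 to 3) and CD26+ NF control (n = 3, replicates 10 to 12) received conditioned medium of the control kind for 7 days. CD26- NF CM (n = 6, replicates 4 to 9) and CD26+ NF CM (n = 6, replicates 13 to 18) received medium conditioned by tumor cells (CM) for 7 days. Dpp4 encodes CD26, a peptidase of the cell surface. The CM came from 6 tumor cell lines of a mouse model of invasive lobular carcinoma. The mice carry WapCre and Cdh1 F/F, so that the Wap promoter drives Cre in mammary epithelium and E-cadherin is lost there. Each line gave CM to 1 CD26- and 1 CD26+ culture, so line and replicate are the same thing within a cell type. The labels give the genotype of the NFs as FVB/n. The methods of the study name as sources of NFs, on that background, adult females that carried floxed alleles, Cdh1 F/F among them, without WapCre, or mTmG reporter females, and do not say which of these gave the cultures sequenced here. Per the methods of the study, glands of several mice were pooled for a sort, the gate took cells negative for EpCAM, CD49f (encoded by Itga6), CD45 and CD31, and the cells were grown and passaged before use. The labels do not say which cultures came from separate sorts, so the tests measure the spread between these libraries, which may in part be technical.

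The mammary epithelium is a bilayer. Luminal cells line the duct, express the simple-epithelium keratins Krt8, Krt18, Krt19 and Krt7, and hold the hormone-sensing cells (Esr1, Pgr, Foxa1, Prlr) and the milk-producing lineage (Elf5, Lalba, Csn3). Basal cells surround them, express Krt5, Krt14, Krt17, P-cadherin (Cdh3) and the transcription factor p63 (Trp63), and contract during lactation. Both layers share E-cadherin (Cdh1), EpCAM, the splicing regulators Esrp1 and Esrp2, the transcription factors Grhl2, Ovol1, Elf3 and Ehf, and the membrane serine protease St14 with its inhibitors Spint1 and Spint2. Fibroblasts are usually distinguished from these cells by the absence of such genes.

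The members were chosen with the difference between CD26- and CD26+ NFs in these same libraries known, and it is treated as what chose them. Values for that difference are therefore given as a description without a test. The effect of CM, its difference between the cell types and the differences among the CM lines were tested. Whether those values also took part in the choice is not stated, and if so their tests would not be independent of it. Levels are given as CPM, the read count of a gene scaled to a common library size after TMM normalization. FDR denotes the p of the quasi-likelihood test in edgeR after Benjamini-Hochberg adjustment over all 14273 genes tested.

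Upstream sequence is shown for 5 members whose levels went together across the libraries, Krt8, Krt18, Epcam, Rab25 and Spint1, and for the basal keratin gene Krt5, whose level did not go with them, so that their start regions can be read beside the values. RefSeq promoters (GRCm38.p6) were matched by symbol for 22 of the 38 members, and Krt15, Krt17, Trp63, Cdh3 and Cdh1 were among those without an entry. Each line gives the 250 bases before the start, 5′ to 3′ on the strand of the gene, with capitals for the E-box CACCTG or its reverse complement CAGGTG, letters to which the Snail and Zeb repressors of epithelial genes are known to bind.
Krt5, chr15:101712906-101713155, minus strand: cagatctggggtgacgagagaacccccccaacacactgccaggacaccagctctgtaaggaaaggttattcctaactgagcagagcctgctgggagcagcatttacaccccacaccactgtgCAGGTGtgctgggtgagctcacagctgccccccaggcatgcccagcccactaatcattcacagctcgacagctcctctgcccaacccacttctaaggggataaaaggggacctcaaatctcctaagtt
Krt8, chr15:102004343-102004592, minus strand: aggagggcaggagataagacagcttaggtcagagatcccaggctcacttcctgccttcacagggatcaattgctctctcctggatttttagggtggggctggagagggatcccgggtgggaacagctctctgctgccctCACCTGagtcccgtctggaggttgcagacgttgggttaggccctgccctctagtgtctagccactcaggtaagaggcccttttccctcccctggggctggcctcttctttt
Krt18, chr15:102027966-102028215, plus strand: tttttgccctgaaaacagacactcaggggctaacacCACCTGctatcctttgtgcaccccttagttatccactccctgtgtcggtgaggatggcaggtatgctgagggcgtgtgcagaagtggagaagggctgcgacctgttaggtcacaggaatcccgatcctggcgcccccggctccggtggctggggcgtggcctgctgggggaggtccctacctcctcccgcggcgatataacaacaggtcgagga
Epcam, chr17:87635729-87635978, plus strand: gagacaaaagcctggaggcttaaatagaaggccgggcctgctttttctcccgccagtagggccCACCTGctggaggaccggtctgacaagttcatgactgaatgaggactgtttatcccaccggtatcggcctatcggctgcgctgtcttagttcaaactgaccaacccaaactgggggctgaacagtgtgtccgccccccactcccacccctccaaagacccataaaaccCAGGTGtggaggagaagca
Rab25, chr3:88548280-88548529, minus strand: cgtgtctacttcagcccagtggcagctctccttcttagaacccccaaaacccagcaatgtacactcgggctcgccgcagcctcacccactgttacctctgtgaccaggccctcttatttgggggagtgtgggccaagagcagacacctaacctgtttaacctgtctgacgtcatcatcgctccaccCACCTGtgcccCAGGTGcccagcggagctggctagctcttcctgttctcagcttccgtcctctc
Spint1, chr2:119237110-119237359, plus strand: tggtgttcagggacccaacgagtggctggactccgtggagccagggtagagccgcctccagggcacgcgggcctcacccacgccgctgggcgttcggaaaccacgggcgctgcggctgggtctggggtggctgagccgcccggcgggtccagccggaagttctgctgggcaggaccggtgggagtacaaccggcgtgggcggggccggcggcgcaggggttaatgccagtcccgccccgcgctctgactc
Krt5, Krt8 and Krt18 held the letters once, starting at position -128, -111 and -214 from the start. The RefSeq start of Krt8 is 140 bases inside the gene as counted, so its match lies within that gene. Epcam held them at positions -187 and -19, Rab25 at -64 and -53, and the stretch of Spint1 held none. In all, 13 of the 22 members with an entry held CACCTG or CAGGTG, against 17.2% of 32851 promoters of the same length. TATAAA or TTTATA was found in 3 of the 22 members (12.4% of all promoters), GGGCGG or CCGCCC in 10 (32.7%), CCAAT or ATTGG in 7 (33.8%), and AACCGGTT, a Grhl2-type motif that reads the same on both strands, in 0 (0.116%). These motifs do not overlap each other in their letters as searched, and a match describes the letters in the window.

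Total counts ran from 9725723 to 14585349 per library. Fibroblast genes were abundant in all groups: the summed level of 10 fibroblast markers, among them Col1a1, Col1a2, Col3a1 and Pdgfra, ran from 9855 to 21560 CPM in CD26- libraries and from 29430 to 79850 CPM in CD26+ libraries. The pan-immune gene Ptprc stayed at or under 3 counts in every library, as did 4 other of 7 immune markers, Adgre1, Cd3e, Cd79a and Itgam, and the 7 together summed to 13.8 to 27.7 CPM. The 6 endothelial markers summed to at most 9.16 CPM. Of 5 melanocyte markers, Tyr, Dct and Mlana stayed at or under 3 counts in every library, while the list summed to 15.3 to 91.8 CPM, most of it from Mitf, which rose in CM in CD26- NFs (log2 change 1.10, SE 0.31, edgeR FDR = 0.0219) and in CD26+ NFs (1.81, SE 0.31, edgeR FDR = 0.000350). Of 6 epidermal markers, Krt1 and Dsg1a stayed at or under 3 counts in every library. That list summed to 7.55 to 12.2 CPM in CD26- and 3.64 to 6.44 CPM in CD26+ libraries, and its member Ivl (involucrin) averaged 4.76 ± 1.34 CPM (SD, n = 3) in CD26- NF control and 0.519 ± 0.340 CPM (SD, n = 3) in CD26+ NF control. The 6 Schwann cell markers summed to 30.6 to 47.6 CPM in CD26- and 9.63 to 17.1 CPM in CD26+ libraries, the 5 adipocyte markers to 14.3 to 28.0 and 22.3 to 89.1 CPM, and the 7 pericyte and smooth muscle markers to 1546 to 3523 and 1158 to 2970.0 CPM. The part of these lists in the values of the members was not tested. Dpp4 itself did not separate the groups in control medium, with at most 0.171 CPM in CD26- NF control and 0.0809 CPM in CD26+ NF control libraries, while in CM it averaged 0.371 ± 0.281 CPM (SD, n = 6) in CD26- and 3.54 ± 2.56 CPM (SD, n = 6) in CD26+ NFs. Transcripts of 2 gate antigens were present in sorted and cultured cells: Itga6 averaged 206 ± 11.4 CPM (SD, n = 3) and Epcam 231 ± 10.7 CPM in CD26- NF control.

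Most members were detected. A count above 0 was found for 37 of 38, and 34 passed the filter on low counts, which could be passed through 1 group alone: 5 of 6 basal, 13 of 16 luminal, 13 of 13 general epithelial and 3 of 3 other genes. A mean of at least 5 CPM in at least 1 group was reached by 25 members. Lalba, the milk protein alpha-lactalbumin, had 0 counts in all 18 libraries, which allows a level of up to 0.203 to 0.290 CPM depending on the library. Elf5, the regulator of the milk-producing lineage, had at most 4 counts, and so did the basal keratin gene Krt15. In these bulk samples, fewer cells that carry a transcript and less transcript per cell cannot be told apart.

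**Figure D1:**
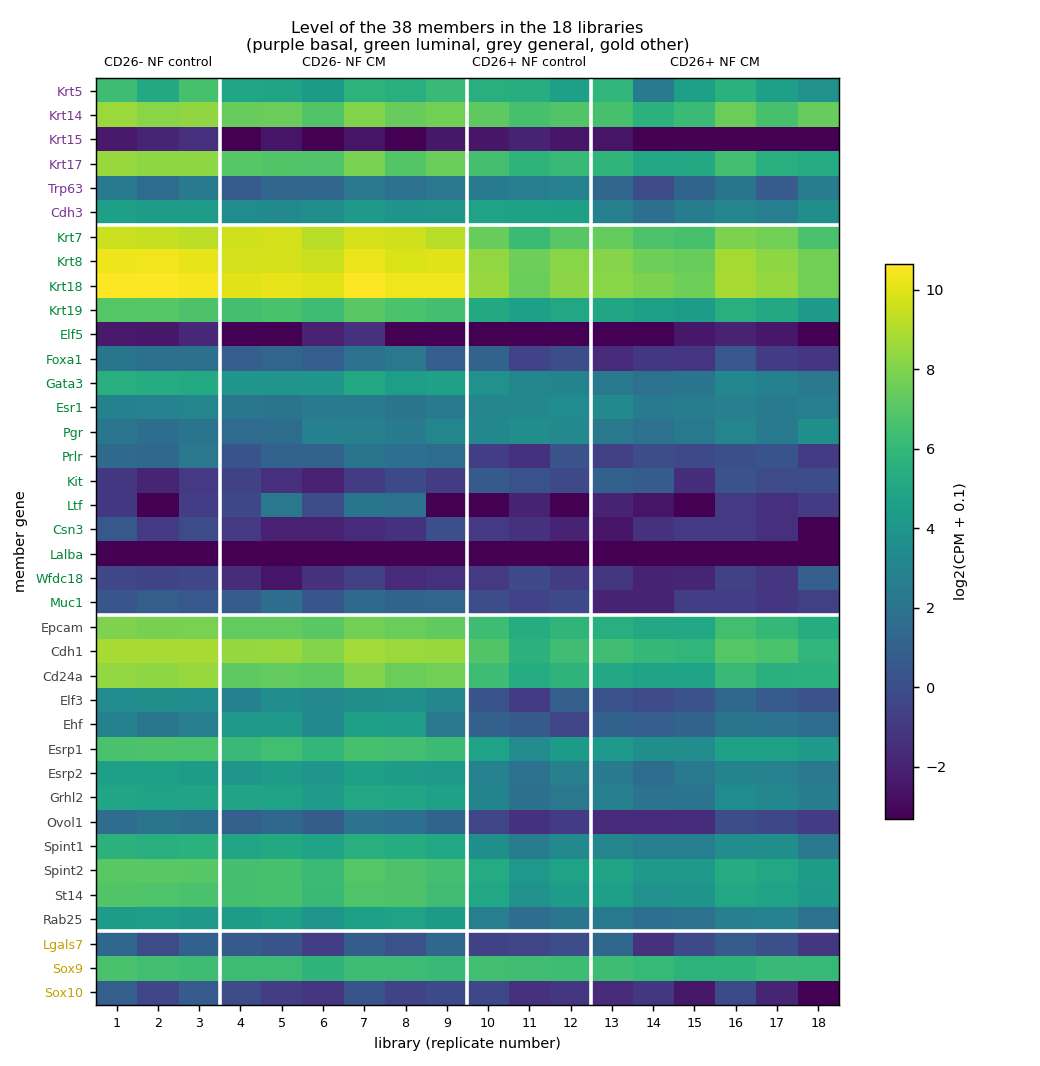
Level of the 38 members (rows, grouped by class) in the 18 libraries (columns, grouped by cell type and medium), as log2(CPM + 0.1). The luminal keratin genes Krt8 and Krt18 stand highest in every library, most general epithelial genes are lower in all CD26+ libraries, and Lalba, Elf5 and Krt15 are at or near 0 throughout.

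In GRCm38, most of the keratin genes lie in 2 clusters. Krt5 (ENSMUSG00000061527, chr15:101707070-101712898), Krt7 (ENSMUSG00000023039, chr15:101411043-101430313), Krt8 (ENSMUSG00000049382, chr15:101996698-102004482) and Krt18 (ENSMUSG00000023043, chr15:102028180-102032027) are on chromosome 15. Krt14 (ENSMUSG00000045545, chr11:100203162-100207548), Krt17 (ENSMUSG00000035557, chr11:100256217-100261029), Krt15 and Krt19 are on chromosome 11. The cadherin genes Cdh3 (ENSMUSG00000061048, chr8:106510891-106557297) and Cdh1 (ENSMUSG00000000303, chr8:106603351-106670246) are both on chromosome 8. Epcam (ENSMUSG00000045394) is at chr17:87635979-87651129. The counts are over whole genes.

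Per kilobase of exon, the 2 partners of the simple-epithelium keratin filament led the members in CD26- NF control, with 1067 CPM per kb for Krt18 and 626 for Krt8. Next on this scale came Krt17 (212), Krt14 (186), Cd24a (130), Epcam (105), Cdh1 (100) and Krt7 (96.8). In CD26+ NF control Krt18 (194) and Krt8 (137) again stood first, followed by Krt14 (67.3) and Krt17 (46.1), and Epcam and Cdh1 were at 26.6 and 18.0 CPM per kb. Basal and luminal keratins were thus present in the same libraries. Lengths are the union of all annotated exons, which understates the scaled level of genes with long rare exons.

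All members together summed to 5982 ± 293 CPM (SD, n = 3) in CD26- NF control, 4617 ± 752 CPM (SD, n = 6) in CD26- NF CM, 1373 ± 367 CPM (SD, n = 3) in CD26+ NF control and 1287 ± 427 CPM (SD, n = 6) in CD26+ NF CM. The CD26+ libraries, at most 2006 CPM, did not reach the lowest CD26- library at 3610 CPM. The 10 fibroblast markers went the opposite way, as given above, and their part in these values was not tested.

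The general epithelial genes were lower in CD26+ than in CD26- NFs in both media. Cdh1, the adherens junction protein E-cadherin, stood at 455, 460 and 460 CPM in CD26- NF control and at 115, 50.7 and 81.5 CPM in CD26+ NF control. In CM its lowest, median and highest levels were 270, 364 and 422 CPM in CD26- NFs and 59.0, 73.7 and 127 CPM in CD26+ NFs. No CD26+ library overlapped a CD26- library. The fitted log2 difference was -2.48 (SE 0.29) in control medium and -2.11 (SE 0.20) in CM.

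Epcam, the epithelial cell adhesion molecule against which the sort was gated, stood at 244, 224 and 226 CPM in CD26- NF control and at 78.8, 39.9 and 56.6 CPM in CD26+ NF control. In CM it ran from 134 through a median of 158 to 208 CPM in CD26- NFs and from 33.4 through 42.1 to 84.5 CPM in CD26+ NFs, again without overlap. The log2 difference was -1.99 (SE 0.29) in control medium and -1.71 (SE 0.21) in CM. Cd24a, a surface glycoprotein used to sort mammary epithelium, differed by -2.53 (SE 0.32) and -2.14 (SE 0.23).

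The remaining general genes followed the same order. Elf3, an epithelial ETS factor, differed by -3.31 (SE 0.35) in control medium and -2.92 (SE 0.24) in CM, and Ovol1, a repressor of mesenchymal genes at no more than 4.01 CPM, by -2.92 (SE 0.42) and -2.48 (SE 0.31). Esrp1, at 101, 107 and 104 CPM in CD26- NF control and 26.9, 10.7 and 19.7 CPM in CD26+ NF control, differed by -2.45 (SE 0.29), and its relative Esrp2 by -1.94 (SE 0.26). Grhl2, a factor that maintains epithelial junction genes, went from 30.1, 27.9 and 28.9 CPM to 7.85, 3.48 and 4.75 CPM. The protease St14 stood at 115, 112 and 101 against 32.0, 13.5 and 20.1 CPM, its inhibitor Spint1 at 49.8, 45.4 and 48.7 against 12.4, 6.00 and 9.65 CPM, and its inhibitor Spint2 at 136, 133 and 129 against 38.5, 17.2 and 27.9 CPM. Rab25, a small GTPase of epithelial recycling endosomes, stood at 20.0, 22.1 and 18.1 against 6.31, 3.11 and 4.30 CPM. The 13 general genes spanned log2 differences of -3.31 to -1.94 in control medium (median -2.36) and -2.92 to -1.71 in CM (median -2.11). The median of all genes tested was within 0.01 of 0 in both media.

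**Figure D2:**
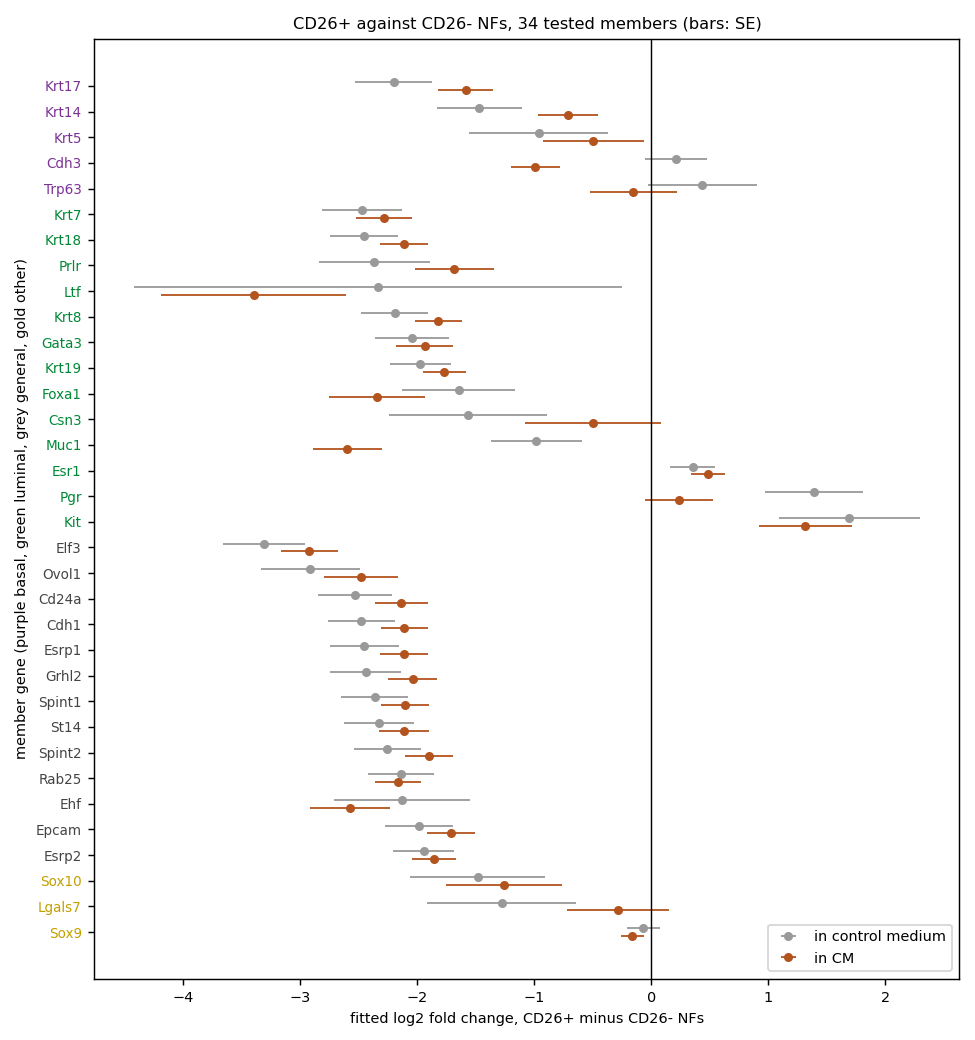
Fitted log2 fold change of CD26+ against CD26- NFs for the 34 tested members, in control medium (grey) and in CM (orange), with SE bars and genes ordered within classes. All 13 general epithelial genes lie between -3.31 and -1.71, the luminal genes Esr1, Pgr and Kit lie right of 0, and the basal genes are spread from -2.20 to 0.44.

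Luminal genes divided. The keratin genes were lower in CD26+ NFs. Krt8 stood at 1259, 1311 and 1110.0 CPM in CD26- NF control and 329, 193 and 284 CPM in CD26+ NF control, and Krt18 at 1565, 1609 and 1428 CPM against 362, 181 and 296 CPM. In CM, Krt8 ran from 736 through a median of 897 to 1201 CPM in CD26- NFs and from 169 through 240 to 432 CPM in CD26+ NFs. Krt18 ran from 1014 through 1249 to 1574 CPM and from 190 through 263 to 448 CPM. No CD26+ library reached a CD26- library for either gene. Krt7 and Krt19 had log2 differences of -2.48 (SE 0.34) and -1.98 (SE 0.26) in control medium, and -2.29 (SE 0.24) and -1.77 (SE 0.18) in CM.

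Gata3, a factor required for luminal fate, stood at 44.9, 40.6 and 36.9 CPM in CD26- NF control and 13.2, 8.52 and 7.94 CPM in CD26+ NF control, a log2 difference of -2.05 (SE 0.32). Its partner Foxa1 and the prolactin receptor gene Prlr, both under 5 CPM, differed by -1.65 (SE 0.48) and -2.37 (SE 0.47). The steroid receptor genes lay on the other side. The estrogen receptor gene Esr1 stood at 7.07, 7.17 and 8.19 CPM in CD26- NF control and 8.26, 9.26 and 11.2 CPM in CD26+ NF control (log2 difference 0.35, SE 0.19). The progesterone receptor gene Pgr stood at 4.45, 3.16 and 3.99 CPM against 8.98, 12.0 and 9.42 CPM (1.39, SE 0.42), and in CM its ranges overlapped, 2.80 to 8.49 CPM against 3.68 to 12.3 CPM. Kit, the receptor of luminal progenitors, was higher in CD26+ NFs at no more than 1.90 CPM (1.69, SE 0.60).

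Basal genes divided as well in control medium, but in CM all 5 tested ones had negative differences. Krt17, a keratin of basal and stressed epithelium, stood at 366, 310 and 312 CPM in CD26- NF control and 92.2, 54.6 and 67.8 CPM in CD26+ NF control (log2 difference -2.20, SE 0.33). Krt14, the partner of Krt5 in basal filaments, stood at 373, 290 and 320 CPM against 144, 96.6 and 114 CPM (-1.47, SE 0.37). Neither gene overlapped between the cell types in control medium. In CM, Krt17 ran from 112 through 127 to 231 CPM in CD26- NFs and from 31.6 through 42.4 to 85.7 CPM in CD26+ NFs, still apart, while Krt14 ran from 117 through 172 to 253 CPM and from 48.7 through 95.5 to 184 CPM, overlapping.

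Krt5 was spread widely between replicates. It stood at 79.4, 34.1 and 96.5 CPM in CD26- NF control and 43.1, 41.2 and 23.7 CPM in CD26+ NF control, overlapping, with a log2 difference of -0.96 (SE 0.60). Trp63, the master regulator of basal epithelium, stood at 5.23, 2.99 and 5.55 CPM against 5.10, 6.22 and 7.35 CPM (0.44, SE 0.47). Cdh3, the P-cadherin of basal cells, stood at 23.3, 21.0 and 21.1 CPM against 26.1, 25.3 and 24.3 CPM (0.21, SE 0.26). In CM the differences were -0.50 (SE 0.43) for Krt5, -0.15 (SE 0.37) for Trp63 and -0.99 (SE 0.21) for Cdh3, which ran from 10.3 through 13.4 to 18.4 CPM in CD26- NFs and from 3.38 through 6.45 to 12.0 CPM in CD26+ NFs, overlapping. Krt15 had 1, 2 and 4 counts against 1, 2 and 1. Keratin genes are closely similar to one another, and how reads that match several of them were counted is not given in the sources used here.

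Over the members with a count, the median fitted log2 difference in control medium was -0.89 for the 6 basal genes and -1.97 for 15 luminal genes, a gap of 1.08. In CM it was -0.83 and -1.75, a gap of 0.92. The ratio of summed basal to summed luminal CPM per library was 0.225, 0.174 and 0.228 in CD26- NF control and 0.334, 0.445 and 0.307 in CD26+ NF control. In CM it ran from 0.108 through a median of 0.118 to 0.157 in CD26- NFs and from 0.158 through 0.278 to 0.436 in CD26+ NFs. Within each medium, every CD26+ library had a higher ratio of summed basal to summed luminal CPM than every CD26- library, in CM by a small margin, at a lower sum of both. Most of the basal sum came from Krt14 and Krt17, and most of the luminal sum from Krt8, Krt18 and Krt7. The ratio therefore describes mainly these keratin genes.

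Of the other genes, Sox9, a factor of luminal and stem-like epithelium that mesenchymal cells also express, stood at 98.4, 84.1 and 79.0 CPM in CD26- NF control and 86.2, 83.3 and 79.5 CPM in CD26+ NF control, a log2 difference of -0.07 (SE 0.14). Lgals7 (galectin-7 of stratified epithelium) and Sox10 stayed at or under 2.50 CPM in every library, with log2 differences of -1.28 (SE 0.64) and -1.48 (SE 0.58) in control medium and -0.28 (SE 0.44) and -1.26 (SE 0.50) in CM. As a description of the choice and not as a test of it, 2 members had a higher and 24 a lower level in CD26+ NFs in control medium at the FDR limit, which 25.0% and 25.4% of all genes tested passed in these directions, and 17 also passed the study's limit of a log2 fold change over 2 or under -2 (5.97% of all genes). In CM the numbers were 2 and 26, against 29.3% and 29.3% of all genes, and 15 passed the study's limit (4.16%). These counts come from the values that chose the members, and nothing is read from them.

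Several members kept a nearly fixed proportion to Cdh1 across the libraries, and 3 of them were picked as examples after their values were seen. The ratio of Krt18 to Cdh1 CPM was 3.35 ± 0.212 (SD, n = 3) in CD26- NF control, 3.48 ± 0.307 (SD, n = 6) in CD26- NF CM, 3.45 ± 0.263 (SD, n = 3) in CD26+ NF control and 3.46 ± 0.157 (SD, n = 6) in CD26+ NF CM. Esrp1 had ratios of 0.227, 0.222, 0.229 and 0.225 in the same order, and St14 of 0.239, 0.261, 0.264 and 0.260. Over the 18 libraries the SD of the log2 ratio to Cdh1 was 0.10 for Krt18, 0.14 for St14 and 0.17 for Esrp1, where the SD of their own log2 level was 1.23, 1.22 and 1.24. The SDs of the levels include the difference between the cell types that chose the members. Within groups, the pooled SD of the log2 level was 0.38, 0.41 and 0.42 in the same order. Residuals from the group means correlated with those of Cdh1 at r of 0.96, 0.94 and 0.90. The basal genes Krt5, Krt14, Trp63 and Cdh3 did not keep such a proportion. The ratio of Cdh3 to Cdh1 was 0.0476, 0.0390, 0.341 and 0.0930, and the SD of its log2 was 1.18 against 0.86 for the level of Cdh3 itself. The basal gene Krt17 came closer, with an SD of the log2 ratio of 0.49 against 1.12 for its level, and the luminal genes Esr1 (1.47 against 0.43) and Pgr (1.66 against 0.66) departed further than any of the basal genes. The median SD of the log2 ratio to Cdh1 was 0.23 over 11 general epithelial genes, 0.26 over 7 luminal genes and 1.09 over 5 basal genes with at least 5 CPM in a group. Library size and scaling cancel in such ratios. Since the difference between the cell types chose the members, a proportion kept across cell types is given as a description.

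**Figure D3:**
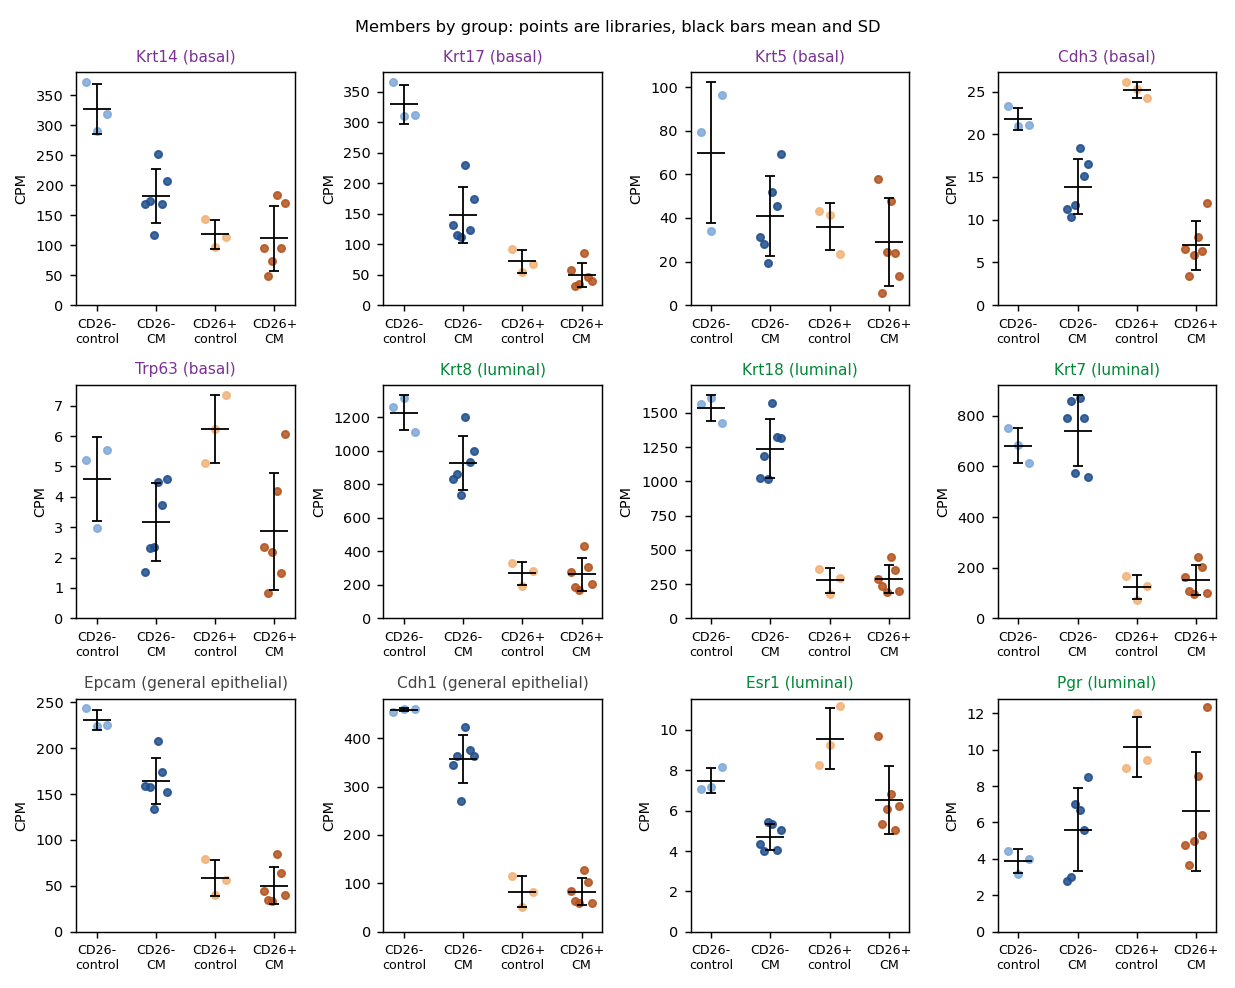
CPM of 12 members in the 4 groups, each point a library and black bars the mean and SD. Krt8, Krt18, Krt7, Epcam and Cdh1 separate the cell types in both media, Cdh3 separates control medium from CM with its lowest values (3.38 to 12.0 CPM) in CD26+ NF CM, and Krt5 overlaps between all groups.

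The next question was whether tumor CM changed these genes. In CD26- NFs, 2 of the 34 tested members rose and 4 fell in CM, where 7.88% of all genes tested rose and 7.28% fell, so the members' share was near that of all genes. Those that fell were Krt17, Gata3, Esr1 and Cd24a, and those that rose were Ehf and Ltf. The study's limit on the fold change, which 0.904% of all genes passed, was passed by Ltf. Since Ltf came through the filter on low counts by its level in CD26- NF CM alone, its rise there is a description and not support for a change. DESeq2 called 7 members (16.1% of all genes), Krt14 besides these 6. The median log2 change was -0.39 over the 34 members and 0.01 over all genes.

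Krt17 fell from 366, 310 and 312 CPM to between 112 and 231 CPM (median 127), without overlap, by 1.16 on the log2 scale (SE 0.26, edgeR FDR = 0.00721), and kept its call whichever library was left out (FDR at most 0.0434). Gata3 fell from 36.9 to 44.9 CPM to between 15.5 and 35.7 CPM (median 18.8), by 0.92 (SE 0.25, edgeR FDR = 0.0205). Esr1 fell from 7.07 to 8.19 CPM to between 4.00 and 5.41 CPM (median 4.68), by 0.68 (SE 0.18, edgeR FDR = 0.0158), and Cd24a from 316 to 357 CPM to between 144 and 268 CPM (median 171), by 0.88 (SE 0.25, edgeR FDR = 0.0258). None of the 4 overlapped between control and CM libraries. Neither did other members without a call, such as Cdh1 (edgeR FDR = 0.304), and in all 11 of the 34 tested members had no overlap here. The share over all genes was not determined, so nothing is read from the lack of overlap.

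Ehf, an ETS factor of simple and glandular epithelium, rose from 6.97, 4.44 and 6.16 CPM to a median of 18.9 CPM (4.69 to 24.1), by 1.50 (SE 0.40, edgeR FDR = 0.0189). Ltf, the secreted iron-binding protein lactoferrin, had 4, 0 and 7 counts in control libraries and 9, 67, 12, 57, 46 and 0 counts in CM libraries 4 to 9, a log2 change of 2.97 (SE 0.97, edgeR FDR = 0.0472). In both genes the library with CM of line 13-MCB-138 overlapped the control libraries. The Gata3, Cd24a and Ehf calls were lost without any of CD26- NF control replicates 1, 2 or 3 (FDR between 0.0516 and 0.111), Cd24a also without CD26- NF CM replicate 4, 5 or 6, and Esr1 without CD26- NF control replicate 3 (FDR = 0.101). The Ltf call held without CD26- NF CM replicate 4, 6 or 9 or CD26+ NF CM replicate 18 and was lost without any other library (FDR up to 0.153). A fit of the 2 groups alone called 12 members, adding Krt14, Cdh3, Epcam, Cdh1, Spint1, Spint2 and Esrp1, all lower in CM, and dropping Ltf, where that fit called 16.3% of all genes.

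The other basal genes had negative values that did not pass by edgeR. Krt14 stood between 117 and 253 CPM in CM against 290 to 373 CPM in control medium (log2 change -0.85, SE 0.30, edgeR FDR = 0.0645, DESeq2 FDR = 0.0405), and Cdh3 between 10.3 and 18.4 CPM against 21.0 to 23.3 CPM (-0.65, SE 0.23, edgeR FDR = 0.0618). The luminal keratin genes had changes of -0.41 (Krt8, SE 0.23), -0.31 (Krt18, SE 0.24), -0.28 (Krt19, SE 0.21) and 0.12 (Krt7, SE 0.28), none past the threshold. Over the members with a count, the median change was -0.83 for 6 basal and -0.38 for 15 luminal genes, a gap of -0.44. The ratio of summed basal to luminal CPM, given above, was lower in each of the 6 CM libraries than in each control library.

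In CD26+ NFs, 0 of the 34 tested members rose and 4 fell in CM by edgeR, where 15.2% of all genes tested rose and 13.4% fell. The genes that fell were Cdh3, Trp63, Esr1 and Sox9. DESeq2 called 5 (27.0% of all genes), adding Gata3, with none higher, and 7 members had an unadjusted p under 0.05, as did 39.6% of all genes. None passed the study's limit on the fold change (2.01% of all genes did). The median log2 change was -0.09 over the members and within 0.01 of 0 over all genes.

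Cdh3 fell from 26.1, 25.3 and 24.3 CPM to 6.59, 3.38, 5.83, 8.01, 6.30 and 12.0 CPM in libraries 13 to 18, by 1.85 on the log2 scale (SE 0.23, edgeR FDR = 1.97e-05). The groups were far apart, and the call held whichever library was left out (FDR at most 0.000224). Trp63 fell from 5.10, 6.22 and 7.35 CPM to 2.35, 0.825, 2.19, 4.20, 1.51 and 6.08 CPM, by 1.14 (SE 0.41, edgeR FDR = 0.0465), with the library given CM of line 13-MCB-138 inside the control range. Esr1 fell by 0.55 (SE 0.17, edgeR FDR = 0.0206), from 8.26 to 11.2 CPM to a median of 6.17 CPM (5.06 to 9.70). Sox9 fell by 0.36 (SE 0.12, edgeR FDR = 0.0320), from 79.5 to 86.2 CPM to between 52.8 and 79.4 CPM.

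The Esr1 call was lost without CD26+ NF control replicate 12 (FDR = 0.131), the Sox9 call without CD26+ NF control replicate 10, 11 or 12 or CD26+ NF CM replicate 15 or 16 (FDR up to 0.103), and the Trp63 call without 12 of the 18 libraries (FDR up to 0.156), holding only without CD26- NF control replicate 2, CD26- NF CM replicate 4, 7 or 9, or CD26+ NF CM replicate 16 or 18. In the fit of the 2 groups alone only Cdh3 and Sox9 passed, where it called 24.4% of all genes. The 10 fibroblast markers summed to 62810 to 79850 CPM in CD26+ NF control and 29430 to 52490 CPM in CD26+ NF CM, without overlap, against 16570 to 18530 and 9855 to 21560 CPM in CD26- NFs. Single fibroblast markers went both ways: CM raised 4 and lowered 1 of the 10 in CD26- cultures, and raised 3 and lowered 4 in CD26+ cultures. Of the 7 pericyte and smooth muscle markers, CM raised 1 and lowered 2 in CD26- cultures and raised 1 in CD26+ cultures. The shares of all genes that rose and fell are given above. The part of these shifts in the CM effects was not tested.

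No change of the general epithelial genes with CM was detected in CD26+ NFs: 0 of 13 passed by edgeR and 0 by DESeq2, with 0 at an unadjusted p under 0.05, where all genes gave 28.6%, 27.0% and 39.6%, and their median log2 change was -0.03. For Cdh1 the change was 0.00 (SE 0.24, 95% interval -0.47 to 0.48), for Epcam -0.22 (SE 0.25) and for Krt18 0.04 (SE 0.24). Krt17 and Krt14 had changes of -0.54 (SE 0.28) and -0.09 (SE 0.31). Over the members with a count, the median change was -0.84 for 6 basal and -0.03 for 15 luminal genes, a gap of -0.80. With only the members at 5 CPM or more in a group, which leaves 5 basal and 7 luminal genes and omits Krt15 with its few counts, the gap was -0.47. The ratios of summed basal to luminal CPM, given above, overlapped between control and CM libraries of CD26+ NFs.

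**Figure D4:**
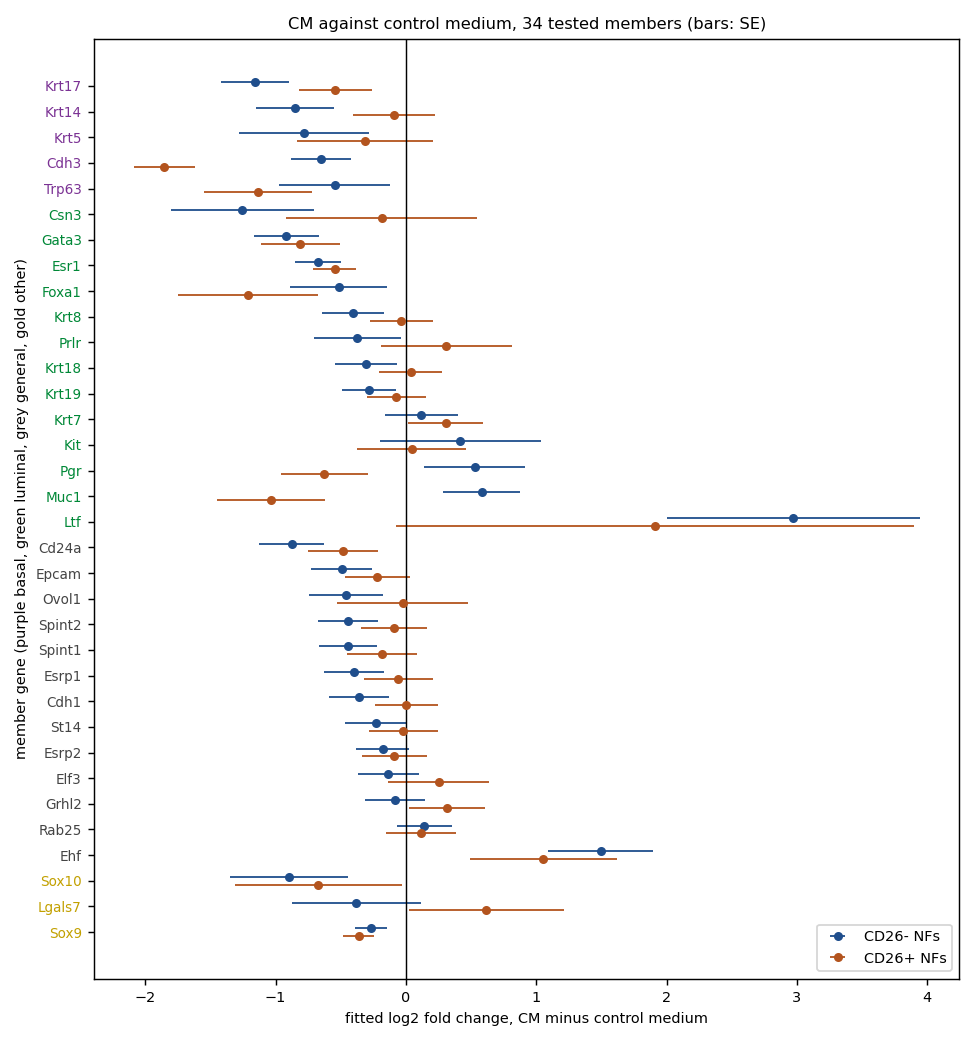
Fitted log2 fold change of CM against control medium for the 34 tested members in CD26- NFs (blue) and CD26+ NFs (orange), with SE bars. Cdh3 lies at -0.65 in CD26- and -1.85 in CD26+ NFs, Ehf and Ltf lie right of 0 in both with wide bars for Ltf, and most general epithelial genes lie at or left of 0 in CD26- NFs and around 0 in CD26+ NFs.

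The CM effect differed between the cell types for 1 of the 34 members, Cdh3, which had the more negative effect in CD26+ NFs (interaction term -1.20 on the log2 scale, SE 0.33, edgeR FDR = 0.0363). None had a more positive effect in CD26+ NFs. Of all genes tested, 4.53% had a positive and 3.01% a negative difference, and 0.392% passed the study's limit. With the CM line as a block, 3 members passed: Cdh3 (-1.23, SE 0.17, edgeR FDR = 0.000618), Pgr (-1.17, SE 0.25, edgeR FDR = 0.00784) and Muc1 (-1.61, SE 0.48, edgeR FDR = 0.0319), at a background of 17.6% of all genes. Muc1, a mucin of the luminal surface, had 2, 2, 6, 6, 4 and 6 counts in CD26+ NF CM. The Cdh3 call without the block was lost when any control library of either cell type, CD26- NF CM replicate 8, or CD26+ NF CM replicate 15 or 17 was left out (FDR between 0.0534 and 0.0907).

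Within the CM groups, each line gave 1 library per cell type, and the differences among lines were tested with cell type as a term. They passed for 6 of the 34 members, against 6.62% of all genes tested: Cd24a (edgeR FDR = 0.00598), Gata3 (0.0123), Krt17 (0.0224), Krt19 (0.0296), Pgr (0.0304) and Spint2 (0.0369). DESeq2 called 17 of 32 members, against 9.66% of all genes.

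Cd24a stood, for lines 13-MCB-17, 10-SJK-221, 18-MCB-12, 13-MCB-44, 13-MCB-90 and 13-MCB-138 in this order, at 144, 158, 144, 268, 184 and 201 CPM in CD26- NFs and at 32.9, 27.3, 27.4, 68.5, 45.9 and 48.0 CPM in CD26+ NFs. Gata3 stood at 15.5, 15.6, 15.8, 35.7, 21.7 and 25.1 CPM and at 5.00, 3.75, 4.14, 9.12, 6.92 and 4.83 CPM. In both genes the CM of line 13-MCB-44 went with the highest level in both cell types. Krt17 was likewise highest with that line, at 231 and 85.7 CPM, and lowest with 18-MCB-12 in CD26- NFs (112 CPM) and 10-SJK-221 in CD26+ NFs (31.6 CPM). Krt19 and Spint2 were also highest with 13-MCB-44 in both cell types, at 134 and 44.8 CPM and at 126 and 40.5 CPM.

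Pgr followed another order. It was highest with line 13-MCB-138, at 8.49 CPM in CD26- and 12.3 CPM in CD26+ NFs, and stood at 2.80 to 3.02 CPM with 13-MCB-17 and 10-SJK-221 in CD26- NFs. Of the 25 members with at least 5 CPM in a group, 19 were highest with 13-MCB-44 in CD26- NFs, 16 in CD26+ NFs and 15 in both. Over the 11125 genes at that level in the whole table these shares were 21.6%, 17.8% and 8.25%. The members went up and down together. Their residuals from the group means had a median correlation with those of Cdh1 of 0.91 for luminal and 0.92 for general epithelial genes. Each line gave 1 library per cell type, so these counts of members are not counts of independent observations of a line. The lowest level was with 18-MCB-12 for 16 of the 25 in CD26- NFs and with 10-SJK-221 for 14 in CD26+ NFs, against 14.7% and 14.3% of all genes at that level. Without CD26- NF CM replicate 7 or CD26+ NF CM replicate 16, the libraries of line 13-MCB-44, 3 and 1 members passed, against 3.43% and 2.88% of all genes. Without replicate 6, 8, 15 or 17 there were 2 or 3, against 2.52% to 3.68%, and without replicate 5, 9 or 18 there were 11, 14 and 14, against 4.59%, 14.6% and 10.2%. The Cd24a call held whichever CM library was left out (FDR at most 0.0393). Of the 12 CM libraries, leaving out any of 7 lost the Krt17 (FDR up to 0.154), Krt19 (up to 0.136) and Pgr (up to 0.091) calls. The Spint2 call was lost without any of 8 (up to 0.133) and the Gata3 call without either of 2 (up to 0.0963).

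**Figure D5:**
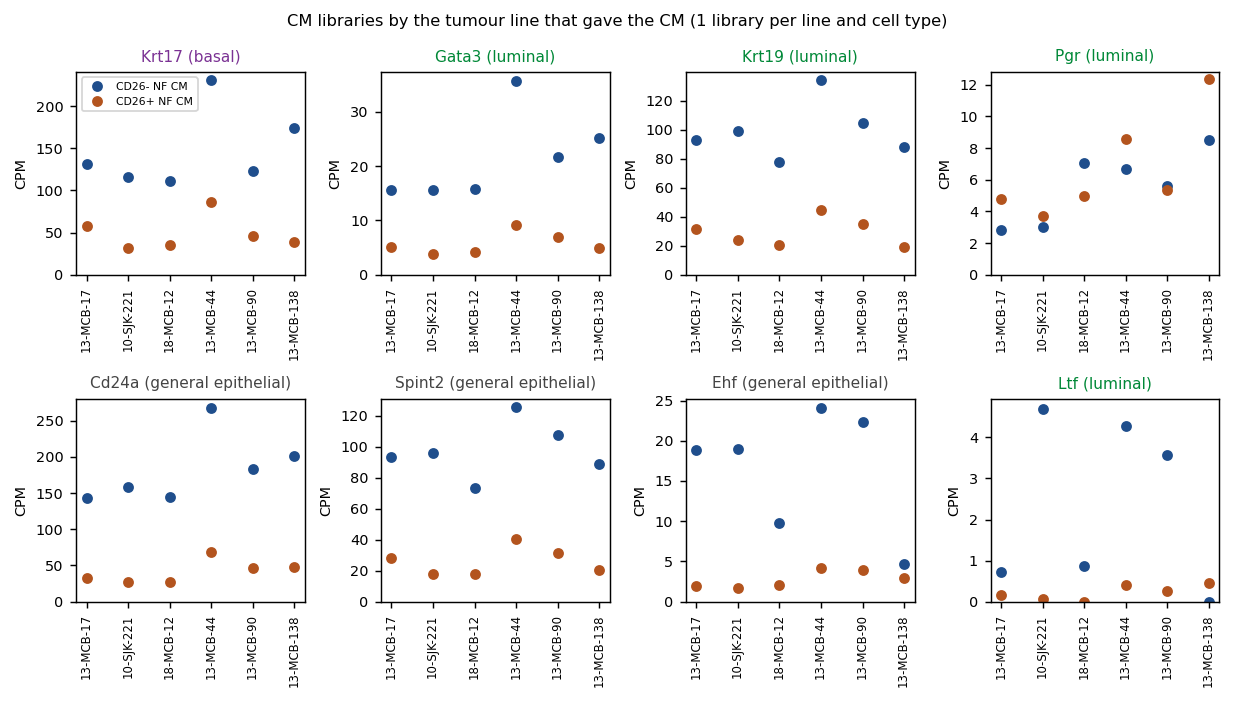
CPM of the 6 members that passed the test among lines, and of Ehf and Ltf, in the 12 CM libraries, by the line that gave the CM (blue CD26- NFs, orange CD26+ NFs, 1 library per point). Line 13-MCB-44 is highest in both cell types for Krt17, Gata3, Krt19, Cd24a and Spint2, line 13-MCB-138 is highest for Pgr, and Ehf and Ltf are lowest in CD26- NFs with line 13-MCB-138.

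Other genes of the same lineages were counted from a pair of wider lists. Of 28 tested genes of basal and stratified epithelium (hemidesmosome, desmosome and contractile genes), 17 had a lower and 0 a higher level in CD26+ NFs, in control medium as in CM, where 25.4% and 29.3% of all genes tested were lower. Of 29 tested genes of luminal and simple epithelium (claudins, tight junction genes and luminal factors), 26 had a lower and 0 a higher level in each medium. The lists were put together with earlier results of this contrast known, so these counts are a description. With CM, CD26- NFs had 1 basal-list gene that rose and 4 that fell, and 2 luminal-list genes that rose and 4 that fell, where 7.88% of all genes rose and 7.28% fell. For CD26+ NFs these numbers were 2 and 0 in the basal list and 4 and 1 in the luminal list, against 15.2% and 13.4% of all genes. The difference in CM effect passed for 0 genes of either list by edgeR and by DESeq2, with 2 basal and 0 luminal genes at an unadjusted p under 0.05, where all genes gave 7.53%, 10.8% and 25.2%.

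The most abundant of the basal list were Acta2, Egfr and Dst. Acta2, smooth muscle actin, which myofibroblasts also express, averaged 2872 ± 34.5 CPM (SD, n = 3) in CD26- NF control and 2519 ± 81.3 CPM (SD, n = 3) in CD26+ NF control. Egfr, the epidermal growth factor receptor gene, rose in CM in CD26- NFs (log2 change 0.39, SE 0.12, edgeR FDR = 0.0422) and in CD26+ NFs (0.61, SE 0.13, edgeR FDR = 0.00167), and Dst, a cytoskeletal linker, in CD26+ NFs (0.73, SE 0.19, edgeR FDR = 0.00950). Of the luminal list these were Cldn4, Aldh1a3 and Xdh. The claudin gene Cldn4 averaged 470 ± 45.0 CPM (SD, n = 3) in CD26- NF control and 87.2 ± 32.8 CPM (SD, n = 3) in CD26+ NF control. Aldh1a3, a retinoic acid-forming enzyme of luminal progenitors, fell in CM by 1.20 (SE 0.23, edgeR FDR = 0.00250) in CD26- and by 1.50 (SE 0.22, edgeR FDR = 0.000107) in CD26+ NFs. Xdh, xanthine dehydrogenase of milk fat secretion, rose by 1.38 (SE 0.29, edgeR FDR = 0.00430) and 1.31 (SE 0.28, edgeR FDR = 0.00218).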

How the data were processed

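The authors sequenced polyadenylated RNA with stranded libraries, single-end, for 65 cycles. The deposited values are raw read counts per Ensembl gene, with GRCm38 coordinates. The submitters' processing notes name HISAT2 2.1.0 and HTSeq. The annotation release, strand setting and treatment of multi-mapped reads are not given in the sources used here. Counts of the 18 libraries were used as deposited, without 1 row that has no gene (0 counts). Members and gene lists were chosen with earlier results of these data known.

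Genes passing filterByExpr (14273) were TMM-scaled and tested in edgeR 4.0.16 (R 4.3.3; quasi-likelihood F test), in 1 model with a term per group. All groups thus share 1 estimate of spread (common biological coefficient of variation 0.117). Line differences were tested in the 12 CM libraries with terms for cell type and line. The SE is the log2 fold change over the square root of F. The threshold was FDR under 0.05. The study used DESeq2 with a log2 limit of 2, an alternative here (DESeq2 1.42.0). Further alternatives were RLE and upper-quartile scaling, no filter, a minimum of 5 CPM, the groups compared alone and leaving out each library. Fits were tested on simulated data. Members averaging 5 CPM or more in any group, the 6 basal genes, Krt8, Krt18, Epcam and Cdh1, and any member past the FDR for CM or line are named with values. Others are given by range or count, with some named beside them. Gene lengths are exon unions of GENCODE M21, whose coordinates matched for 38 of 38 members.

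The same CM went to 1 library of each cell type. Residuals from the group means correlated between those libraries with r from 0.247 to 0.406 in all 6 pairs, so the line pairs the samples and 1 alternative took it as a replicate block. Replicates of a group differed by a chi-square of at least 3.03 per degree of freedom, so no library was a copy of another in its group. Depth was alike across libraries, and a count of 0 allows up to 3 counts, a limit that covers counting error only. The labels give no sequencing batch, so none was tested. A further allele of the tumor model is not reported here.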

Additional observations from a re-analysis of the deposited data

Results flagged for a closer look

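Cdh3, the P-cadherin gene, differed between the cell types in its response to CM. The CM effect was -0.65 (SE 0.23) on the log2 scale in CD26- NFs and -1.85 (SE 0.23) in CD26+ NFs, and the interaction term was -1.20 (SE 0.33, edgeR FDR = 0.0363). Leaving out any of 9 of the 18 libraries lost this call (FDR between 0.0534 and 0.0907). It was the call of 1 of 34 members, where 7.53% of all genes passed. Every CM library of either cell type lay below every control library of that cell type. In 60 checks of the 6 CM libraries of a group for a library far from the others (25 members and 5 sums, in both cell types), 0 passed Dixon's critical value of 0.625, where chance would flag about 1 in 20.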

How the results depend on the processing

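Under RLE and upper-quartile scaling and the minimum of 5 CPM, the number of members past the FDR stayed within 1.5 times that reported in all 6 comparisons, and no called member reversed its direction under any alternative run. With only the 2 groups compared, CM called 12 members in place of 6 in CD26- NFs (16.3% of all genes) and 2 in place of 4 in CD26+ NFs (24.4%). DESeq2 called 2 in place of 1 for the difference in CM effect (10.8% of all genes) and 17 in place of 6 for the lines (9.66%), and without the filter on low counts the lines gave 26 (7.49%). The CM line as a replicate block gave 3 in place of 1 for the difference in CM effect (17.6%) and left CD26+ against CD26- NFs in CM at 28 (63.0%). It was fitted for these 2 comparisons only. The study's log2 limits left 1, 0 and 0 members for CM in CD26- NFs, CM in CD26+ NFs and their difference, and 17 of 26 and 15 of 28 for CD26+ against CD26- NFs in control medium and in CM. Leaving out 1 library at a time gave 1 to 8 members for CM in CD26- NFs (5.69% to 19.3% of all genes), 1 to 7 in CD26+ NFs (19.0% to 34.9%), 0 to 3 for the difference (2.33% to 16.4%) and 1 to 14 for the lines (2.52% to 14.6%). Other than for the stricter limits, the cause was not tested. The gap between the basal and luminal medians kept its direction under every alternative run, and ran from 0.52 to 1.23 for CD26+ against CD26- NFs in control medium, from 0.36 to 1.16 in CM, from -0.86 to -0.33 for CM in CD26- NFs and from -1.09 to -0.47 for CM in CD26+ NFs. The alternatives use the same libraries. Per library, the median log2 level of basal minus that of luminal genes had a pooled SD of 0.63 within groups, and the gaps were not tested against this spread. Members under 5 CPM rest on few reads, and a difference there may not be detectable at this depth.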
